A study of Mus musculus with 6 samples.

Results

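The genes described here encode receptors and bridging molecules with which phagocytes recognise apoptotic cells: the TAM receptor tyrosine kinases Axl, Mertk and Tyro3, their ligands Gas6 and Pros1, the bridging molecule Mfge8, the receptors Timd4, Stab2 and Siglec1, and the secreted scavenger protein gene Cd5l. The 10 genes were taken by symbol, and all 12 of their probes among the 45281 on the array were used. The list was chosen by function, with the signal differences of this same comparison already known, so their differences between the groups are given as a description, with no test. Of the 10 genes, 8 had a probe that was above background on at least 3 arrays, and Tyro3 and Cd5l had none.

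Cells were sorted from bone marrow of 7-week-old female C57BL/6 mice, and their total RNA was hybridised to Illumina BeadChips with 1 colour. One group held 3 arrays of CCR9+ plasmacytoid dendritic cells (pDCs), which make type I interferon, and the other 3 arrays of pDC-like cells without the chemokine receptor CCR9, labelled as dendritic cell precursors. The series describes separate isolations for each replicate; no genetic change or treatment is labelled. The sources used here do not state the other sorting gates.

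An apoptotic cell exposes phosphatidylserine on its surface, and phagocytes bind it either directly, through receptors such as TIM-4 (Timd4) and stabilin-2 (Stab2), or through soluble bridges. Gas6 and protein S (Pros1) bridge phosphatidylserine to TAM receptors, and MFG-E8 (Mfge8) bridges it to integrins. In dendritic cells TAM receptors are also known to restrain cytokine production after Toll-like receptor and interferon signalling.

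On an array 15254 to 16905 probes were above background (detection p-value below 0.05), and CCR9+ pDC replicate 3 had the fewest. That array also correlated least with its group (mean r over genes 0.976, against 0.983 to 0.993 for the other arrays). Of 11 pDC markers on the array, 10 were tested and above background on every array, including Siglech, Tcf4 and Irf8, while Ccr9 itself was not above background on any. Of these 10, 5 were higher in CCR9+ pDC arrays, 1 was lower (Ly6d) and 4, including Tcf4 and Irf8, did not pass (median log2 difference 0.57). Macrophage markers were higher in CCR9+ pDC arrays: 13 of 13 passed the test, with a median log2 difference of 4.10 against -0.02 over all genes tested. The summed linear signal of these 13 genes ranged from 46792 to 62454 on CCR9+ pDC arrays and from 3536 to 4244 on precursor arrays. On the precursor arrays 7 of the 13 were above background on all 3 arrays (Adgre1, Csf1r, Mrc1, Vcam1, Cd163, Lyz2 and Slc40a1), 3 on 2 arrays (Spic, C1qb and C1qc) and 3 on none (Fcgr1, C1qa and Hmox1). The part of macrophage RNA in the results below was not tested, and in sorted bulk samples fewer cells of a type and less RNA per cell cannot be told apart. Of the other cell types, 8 of 8 neutrophil and 5 of 5 basophil and mast cell markers were higher in CCR9+ pDC arrays (median log2 differences 0.77 and 2.29), as were 3 of 5 monocyte markers, while of 6 conventional dendritic cell markers 2 were higher and 2 lower. Higher too were 2 of 2 T- and NK-cell markers and 1 of 3 each of the B-cell, erythroid and megakaryocyte markers. Of all genes tested, 17.6% were higher and 18.2% lower.

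The uptake genes did not move one way. Axl, Mertk, Gas6, Siglec1, Stab2 and Timd4 had higher signals in CCR9+ pDCs, and Pros1 and Mfge8 had higher signals in precursors. For 6 of the 8 genes with a kept probe every CCR9+ pDC array lay above every precursor array, and for the other 2 every one lay below. Over all 9561 genes tested, the arrays did not overlap for 50.9% (24.2% in the first direction and 26.7% in the second), and 35.8% passed the test described below. Since the genes were chosen with this contrast known, nothing is read from that count. Levels of different probes are not compared, because each probe binds its target with its own strength.

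**Figure D1:**
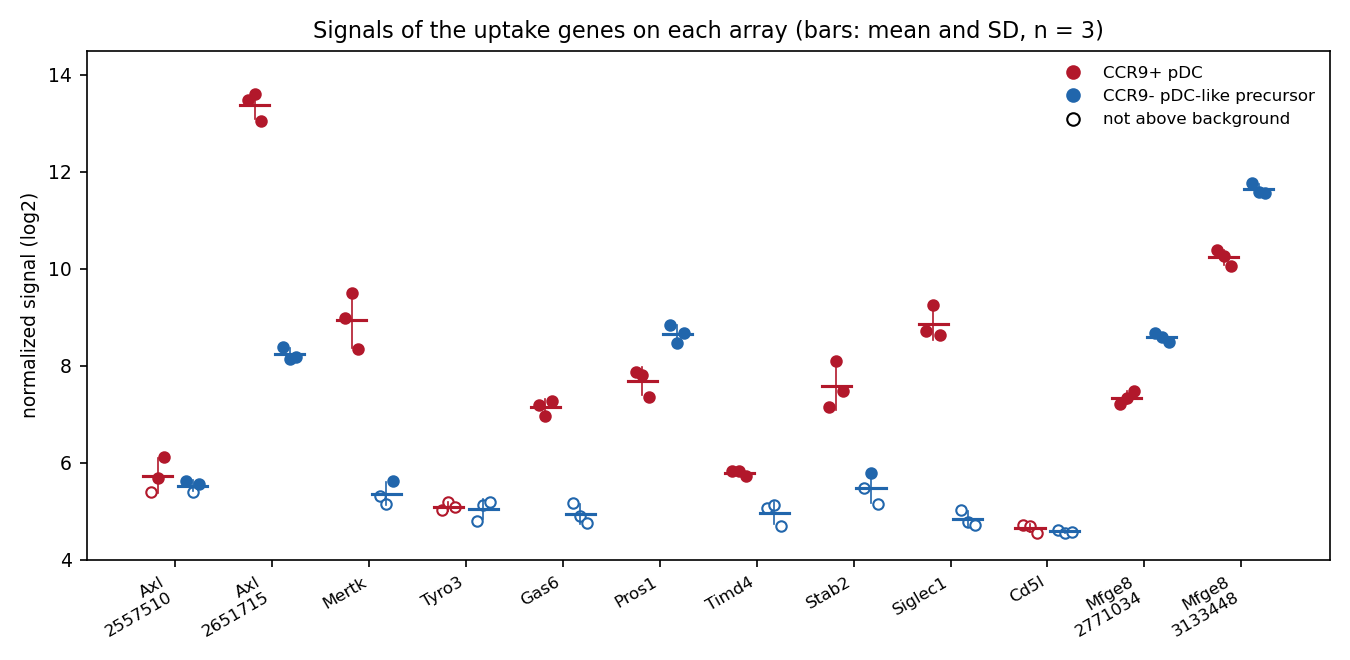
Normalized log2 signal of each of the 12 probes on each array, red for CCR9+ pDC and blue for CCR9- pDC-like precursor, with open points where the probe was not above background; bars give mean and SD (n = 3). The bright Axl probe, Mertk, Gas6, Stab2, Siglec1 and Timd4 lie higher in CCR9+ pDCs, Pros1 and both Mfge8 probes lie lower, and Tyro3 and Cd5l stay at background.

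Axl is the TAM receptor of Gas6. The deposited signals of its bright probe ILMN_2651715 were 10879.9, 12885.6 and 7563.6 on CCR9+ pDC arrays 1, 2 and 3, and 509.6, 423.7 and 455.6 on the precursor arrays. After background correction and normalization these became 13.49, 13.61 and 13.05 in CCR9+ pDCs and 8.39, 8.15 and 8.19 in precursors (log2). The gap between the groups was far wider than the spread within either, and the probe was above background on all 6 arrays, so precursors had an Axl signal too. The CCR9+ pDC mean was 13.38 ± 0.30 and that of precursors 8.24 ± 0.13 (log2, SD, n = 3), a 35.2-fold difference. The second Axl probe, ILMN_2557510, which the annotation ties to another transcript record, did not follow. Its log2 signals were 5.40, 5.69 and 6.12 in CCR9+ pDCs and 5.62, 5.40 and 5.56 in precursors, the groups overlapped, and it was above background on 2 arrays of each. With the mean of both probes the Axl log2 difference was 2.67 instead of 5.14.

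Mertk, the TAM receptor that binds both Gas6 and protein S, had log2 signals of 8.99, 9.51 and 8.35 on CCR9+ pDC arrays. In precursors they were 5.31, 5.15 and 5.62, and only replicate 3 was above background. The groups did not overlap, and the CCR9+ pDC arrays spread over 1.16 log2 units, the widest range of the 8 genes with a kept probe. The means were 8.95 ± 0.58 and 5.36 ± 0.24 (log2, SD, n = 3), a fitted 12.1-fold difference that rests partly on signals not above background. Tyro3, the TAM receptor best known from the nervous system, was not above background on any array (lowest detection p-value 0.140). Its deposited signals ran from 132.7 to 162.5 in CCR9+ pDCs and from 137.6 to 168.2 in precursors, so the groups overlapped and no fold is given.

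The TAM ligands went in opposite directions. Gas6 had log2 signals of 7.19, 6.95 and 7.28 in CCR9+ pDCs and 5.17, 4.90 and 4.76 in precursors, where no array was above background. Gas6 was therefore at least 3.18-fold higher in CCR9+ pDCs (7.14 ± 0.17, log2, SD, n = 3); the measured precursor mean was 4.94 ± 0.21. This bound sets the CCR9+ pDC mean against the precursor mean of, on each array, the higher of the probe's own signal and the lowest signal of any probe above background. Pros1 was above background on all 6 arrays, at 7.88, 7.82 and 7.36 in CCR9+ pDCs and 8.83, 8.47 and 8.67 in precursors (log2). Every precursor array lay above every CCR9+ pDC array, with means of 8.66 ± 0.18 and 7.69 ± 0.28 (log2, SD, n = 3), a 1.96-fold difference. Precursor arrays thus had signals of Axl and Pros1 on all 3 arrays, of Mertk on 1, and of Gas6 and Tyro3 on none.

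Mfge8 was lower in CCR9+ pDCs by both of its probes, which the annotation ties to different RefSeq transcripts. The brighter probe, ILMN_3133448, had log2 signals of 10.38, 10.26 and 10.06 in CCR9+ pDCs and 11.77, 11.59 and 11.57 in precursors. The dimmer, ILMN_2771034, had 7.22, 7.34 and 7.47 in CCR9+ pDCs and 8.68, 8.60 and 8.49 in precursors. The arrays did not overlap for either. The brighter probe was 2.66-fold and the dimmer 2.37-fold higher in precursors (log2 differences of -1.41 and -1.25 for CCR9+ pDC minus precursor), so the probes gave similar differences, unlike those of Axl.

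Siglec1 encodes sialoadhesin, a sialic acid-binding adhesion molecule of tissue macrophages. It had log2 signals of 8.72, 9.25 and 8.63 in CCR9+ pDCs and 5.02, 4.78 and 4.71 in precursors, none of the latter above background. It was at least 10.5-fold higher in CCR9+ pDCs (8.87 ± 0.33 against a measured 4.83 ± 0.16, log2, SD, n = 3). Stab2, a scavenger receptor of phosphatidylserine and hyaluronan known from sinusoidal endothelium, had 7.15, 8.10 and 7.48 in CCR9+ pDCs and 5.48, 5.78 and 5.16 in precursors. Only precursor replicate 2 was above background, and the fitted difference was 4.30-fold (7.58 ± 0.48 against 5.47 ± 0.31, log2, SD, n = 3). Timd4, a phosphatidylserine receptor of resident macrophages, was barely above background: its deposited signals were 164.7, 179.3 and 187.7 in CCR9+ pDCs and 150.6, 160.3 and 141.5 in precursors. Its detection p-values were 0.0043, 0.013 and 0.041 in CCR9+ pDCs and 0.17 or higher in precursors. It was at least 1.25-fold higher in CCR9+ pDCs (5.80 ± 0.06 against a measured 4.97 ± 0.23, log2, SD, n = 3), and with a detection p-value below 0.01 required on 3 arrays it was not kept. Cd5l, made by tissue macrophages, was at background throughout, with deposited signals from 117.5 to 129.1 in CCR9+ pDCs and from 124.1 to 130.3 in precursors. Cd5l stayed at background on the same CCR9+ pDC arrays on which the 13 macrophage markers and Siglec1 were above background. With only 1 probe, an absent Cd5l transcript cannot be told apart from a probe that does not respond.

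The size of the differences depended on how the background was treated. Without background correction the log2 differences were 4.65 for Axl, 1.94 for Mertk, 0.88 for Gas6, 2.09 for Siglec1, 0.93 for Stab2 and 0.31 for Timd4. The authors' processed values gave 4.80, 1.95, 0.87, 2.10, 0.95 and 0.32 for the same genes in that order. Pros1 moved to -0.67 and -0.65 and Mfge8 to -1.32 and -1.24 under these settings. Directions were kept for all 8 genes, but the lower bounds given for Gas6, Siglec1 and Timd4 hold only with the background correction.

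**Figure D2:**
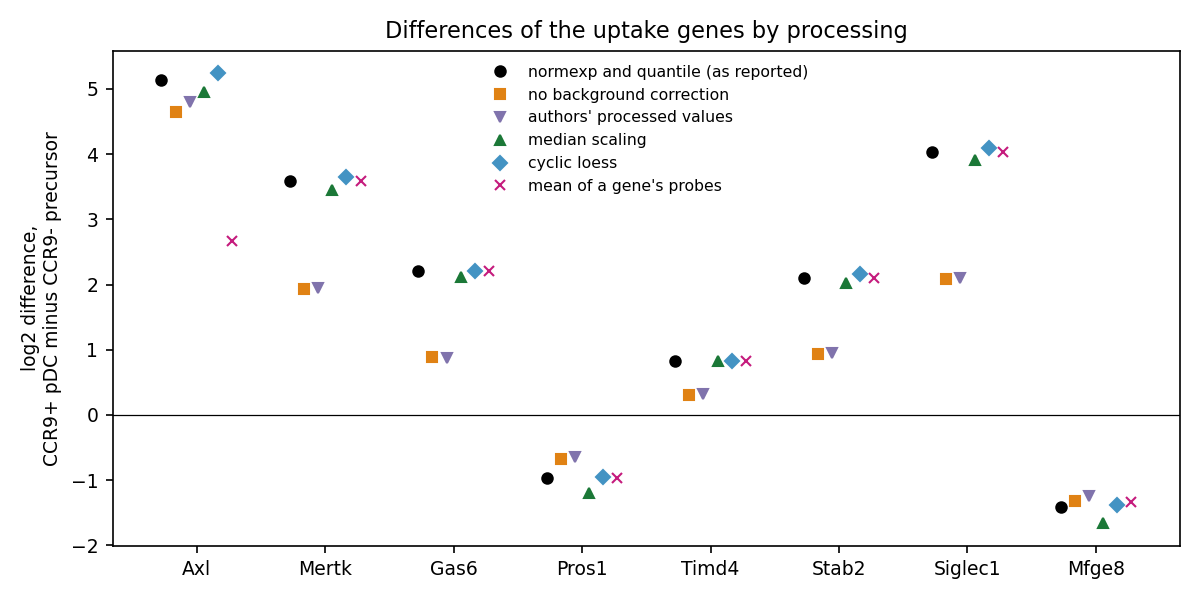
Log2 difference (CCR9+ pDC minus CCR9- precursor, vertical axis) of the 8 genes with a kept probe under 6 ways of processing, 1 symbol each; the fitted differences of Gas6, Siglec1 and Timd4 rest on precursor signals not above background. All symbols of Axl, Mertk, Gas6, Timd4, Stab2 and Siglec1 lie above 0 and all of Pros1 and Mfge8 below, and the Axl value drops to 2.67 when its probes are averaged.

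The CCR9+ pDC arrays differed among themselves in these genes. Axl, Mertk, Stab2 and Siglec1 were highest on replicate 2. Of the 8 genes with a kept probe, 6 were lowest on replicate 3: Axl, Mertk, Siglec1 and Timd4, higher in CCR9+ pDCs, and Pros1 and Mfge8, lower there. Replicate 3 had the fewest probes above background. How many of all genes were lowest there was not counted, so nothing is read from this number. Timd4 varied by only 0.10 log2 units, and its deposited signal was highest on replicate 3 (187.7). Gas6 was lowest on replicate 2 and, after the normalization used here, highest on replicate 3. Its deposited signals were close (258.3, 247.1 and 260.2 on replicates 1, 2 and 3). In the authors' processed values replicate 1 was highest (283.4, 253.7 and 258.3 in that order). The mean log2 signal of the macrophage markers was 10.98, 11.01 and 10.60 on replicates 1, 2 and 3, also lowest on replicate 3. That of the 10 pDC markers tested was 12.48, 12.38 and 12.40. Other lists were lowest on replicate 3 too: basophil and mast cell (8.91, 8.62 and 8.09) and erythroid (10.68, 10.68 and 10.14). So were the megakaryocyte (7.77, 6.93 and 6.19) and conventional dendritic cell lists (7.31, 7.23 and 7.18). The monocyte, neutrophil, B-cell and T- and NK-cell lists were, like the pDC list, lowest on replicate 2. With 3 arrays these orders are a description, and that of Gas6 depended on the processing.

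**Figure D3:**
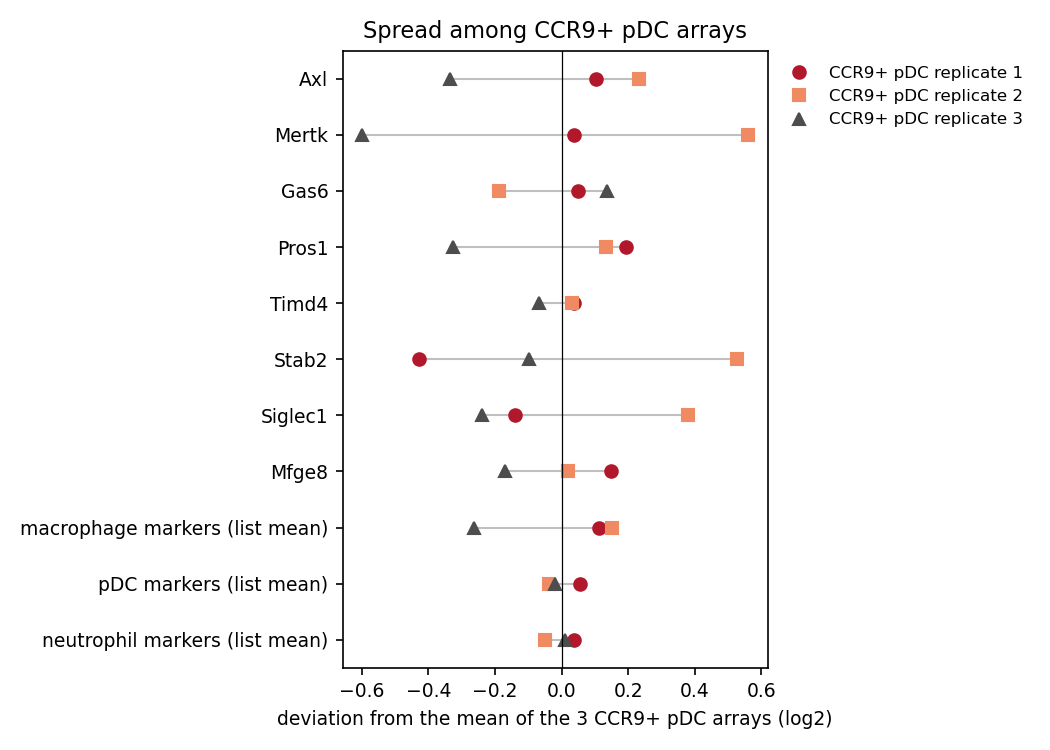
Deviation of each CCR9+ pDC array from the mean of the 3 arrays (log2, horizontal axis) for the 8 genes with a kept probe and for the mean of 3 marker lists, 1 symbol per replicate. Mertk spans 1.16 log2 units with replicate 3 lowest, as for Axl, Siglec1, Timd4, Pros1, Mfge8 and the macrophage markers, while Gas6 is highest on replicate 3 and Stab2 lowest on replicate 1.

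The genes most like Axl over the 6 arrays, by the root mean square difference of signals centred on each gene's mean, were C1qc (0.12 log2 units), Pgam2 (0.22), H2-Eb1 (0.24), Slco2b1 (0.24) and Ms4a7 (0.25). C1qc encodes a chain of complement C1q, H2-Eb1 an MHC class II chain, Slco2b1 an organic anion transporter and Pgam2 a phosphoglycerate mutase of muscle. Those most like Mertk were Dmpk (0.17), Igf1 (0.20), Scamp5 (0.24), Pdzk1 (0.25) and Slc7a8 (0.25). Igf1 encodes an insulin-like growth factor. Because the centring keeps the difference between the groups, it takes in the size of the group difference, which was 4.72 to 5.29 on the log2 scale for those nearest Axl and 3.21 to 3.65 for those nearest Mertk. These distances and differences rest partly on background: Pgam2 and Ms4a7, and Dmpk, Scamp5, Pdzk1 and Slc7a8, were not above background on any precursor array, and Igf1 and Mertk were on 1 each. The order of the genes nearest Mertk is therefore no order of measured precursor levels.

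Promoter windows of RefSeq (build GRCm38.p6, 250 bases before to 50 after the annotated start) were found for 9 of the 10 genes, all but Siglec1. The windows of both detected TAM receptors, higher in CCR9+ pDCs, are shown with that of Mfge8, lower there, and that of Stab2, so that genes moving in opposite directions can be set beside each other. Capitals mark letters matching GGGCGG (a GC box, bound by Sp1), GAGGAA (an ETS core, bound by PU.1 and Spi-B) or AGGTCA (a half-site of nuclear receptors) on either strand.
Axl (chr7:25788684-25788983, minus strand): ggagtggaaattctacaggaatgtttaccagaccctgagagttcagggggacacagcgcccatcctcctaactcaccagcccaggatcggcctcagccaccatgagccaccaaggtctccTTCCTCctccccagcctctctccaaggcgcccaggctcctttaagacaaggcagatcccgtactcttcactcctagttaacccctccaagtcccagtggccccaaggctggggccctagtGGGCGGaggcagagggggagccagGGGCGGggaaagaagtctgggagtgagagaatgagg
Mertk (chr2:128698665-128698964, plus strand): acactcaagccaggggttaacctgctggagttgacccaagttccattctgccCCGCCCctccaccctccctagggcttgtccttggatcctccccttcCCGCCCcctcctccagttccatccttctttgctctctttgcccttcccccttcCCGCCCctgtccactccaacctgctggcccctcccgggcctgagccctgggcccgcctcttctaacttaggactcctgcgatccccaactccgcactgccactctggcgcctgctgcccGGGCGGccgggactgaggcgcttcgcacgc
Mfge8 (chr7:79149011-79149310, minus strand): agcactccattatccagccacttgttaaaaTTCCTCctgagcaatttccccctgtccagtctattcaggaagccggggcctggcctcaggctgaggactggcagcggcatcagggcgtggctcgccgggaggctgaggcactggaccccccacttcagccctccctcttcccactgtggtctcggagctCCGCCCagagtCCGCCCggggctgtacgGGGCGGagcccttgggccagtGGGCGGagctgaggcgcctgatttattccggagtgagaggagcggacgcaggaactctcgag
Stab2 (chr10:87007893-87008192, minus strand): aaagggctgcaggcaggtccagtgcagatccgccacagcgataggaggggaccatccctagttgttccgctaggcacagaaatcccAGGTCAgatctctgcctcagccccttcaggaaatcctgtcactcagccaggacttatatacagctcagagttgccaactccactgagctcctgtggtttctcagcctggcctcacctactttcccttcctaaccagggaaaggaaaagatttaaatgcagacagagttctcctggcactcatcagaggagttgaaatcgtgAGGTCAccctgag
GGGCGG occurred in 6 of the 9 windows (Axl, Mertk, Tyro3, Gas6, Pros1 and Mfge8), against 35.7% of 32851 promoter windows, so it was present in genes higher and lower in CCR9+ pDCs alike. Axl had 2 matches and Mertk and Mfge8 had 4 each. GAGGAA was found in Axl, Mfge8 and Cd5l (28.3% of all windows), and AGGTCA in Stab2 and Timd4 (16.3%). CAGGTG, an E-box bound by E proteins (20.2%), the interferon response core (GAAA, any pair of bases, GAAA; 3.44%) and TATAAA (13.6%) were in none of the 9. The GC content was 73.3% for Tyro3, 58.3% to 66.7% for Axl, Mertk, Gas6, Pros1 and Mfge8, 53% for Stab2, 50.7% for Timd4 and 46.3% for Cd5l, against a median of 52.7% over all windows. A match is a description of letters and not a binding site.

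Other genes of apoptotic cell uptake were tested in the fit over all genes (limma with Benjamini-Hochberg adjustment). Of 71 partner genes tested, 26 (36.6%) were higher and 8 (11.3%) lower in CCR9+ pDCs, against 17.6% and 18.2% of all 9561 genes. The lists were chosen with earlier results of these data known, so nothing is read from the difference between these shares. The 8 lower include Stab1, for which no direction is given below. Under median scaling 21 were higher and 9 lower; all calls together were then 31.7% higher, against 49.2%, and the median over all genes was -0.19 in place of -0.02. Whether the lists below differ from each other was not tested. For each list the shares of all genes, 17.6% higher and 18.2% lower, are the comparison.

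Of 11 other uptake receptors tested, 5 were higher, 1 lower and 5 did not pass (median log2 difference 0.47). Itgb5, the beta chain of an integrin that binds Mfge8, was higher by 3.06 on the log2 scale (8.40 ± 0.14 against 5.34 ± 0.37, SD, n = 3; adjusted p = 5.77e-05) and above background on 1 precursor array. Its partner chain Itgav did not pass (log2 difference 0.47, adjusted p = 0.192); without CCR9+ pDC replicate 3 the difference was 0.76 (adjusted p = 0.0067), and with probe means 0.50 (adjusted p = 0.0176). Mfge8 and Itgb5 thus lay on opposite sides of the comparison. Itgb3, another integrin chain gene of the list, was not above background on any array. Cd14, a lipopolysaccharide coreceptor that also binds apoptotic cells, was 4.20-fold higher (adjusted p = 0.000291), and Cd300lf, a phosphatidylserine receptor of myeloid cells, 3.37-fold (adjusted p = 0.000558). Without background correction the log2 differences were 1.51 for Itgb5, 1.09 instead of 2.07 for Cd14 and 0.94 instead of 1.75 for Cd300lf. Havcr1, which encodes TIM-1 of the Timd4 family and is named after its value was seen, was 2.11-fold higher (11.51 ± 0.09 against 10.43 ± 0.12, log2, SD, n = 3; adjusted p = 0.000363). Stab1, the relative of Stab2, was called lower by 1.90 on the log2 scale (-1.90, adjusted p = 0.000127) from its brightest probe, but its other kept probes differed by 1.70 and 0.96 in the opposite direction, and the mean of its probes by 0.25 (adjusted p = 0.319). No direction is given for Stab1.

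All 6 other bridging molecules tested passed, 5 higher and 1 lower (median 4.20). Of all genes tested, 17.6% were higher and 18.2% lower. As stated above, nothing is read from the difference between such shares. The C1q chain genes C1qb and C1qc, whose product coats apoptotic cells, were 70.5- and 39.2-fold higher in CCR9+ pDCs (adjusted p = 1.58e-05 and 1.19e-05), each above background on 2 precursor arrays, and C1qa was at least 7.60-fold higher (adjusted p = 0.000692). These 3 genes also stand among the macrophage markers above, and C1qa was not above background on any precursor array. Apoe, the apolipoprotein E gene, was a fitted 28.0-fold higher (10.28 ± 0.05 against 5.47 ± 0.08, log2, SD, n = 3; adjusted p = 1.33e-06) and above background on 1 precursor array. Without background correction the log2 differences were 4.37 instead of 6.14 for C1qb and 3.57 instead of 5.29 for C1qc. They were 3.02 instead of 4.81 for Apoe and 1.78 instead of 3.59 for C1qa, so the C1qa bound holds only with the correction. The exception was Lgals3, the gene of galectin-3, a further ligand of Mertk, named after its value was seen. It was 1.69-fold lower (12.62 ± 0.14 against 13.38 ± 0.11, log2, SD, n = 3; adjusted p = 0.0025). Among the ligands of Mertk named here, Gas6 was therefore higher and Pros1 and Lgals3 lower in CCR9+ pDCs. Tulp1 and Thbs1, also on the bridging list, were not above background on any array.

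**Figure D4:**
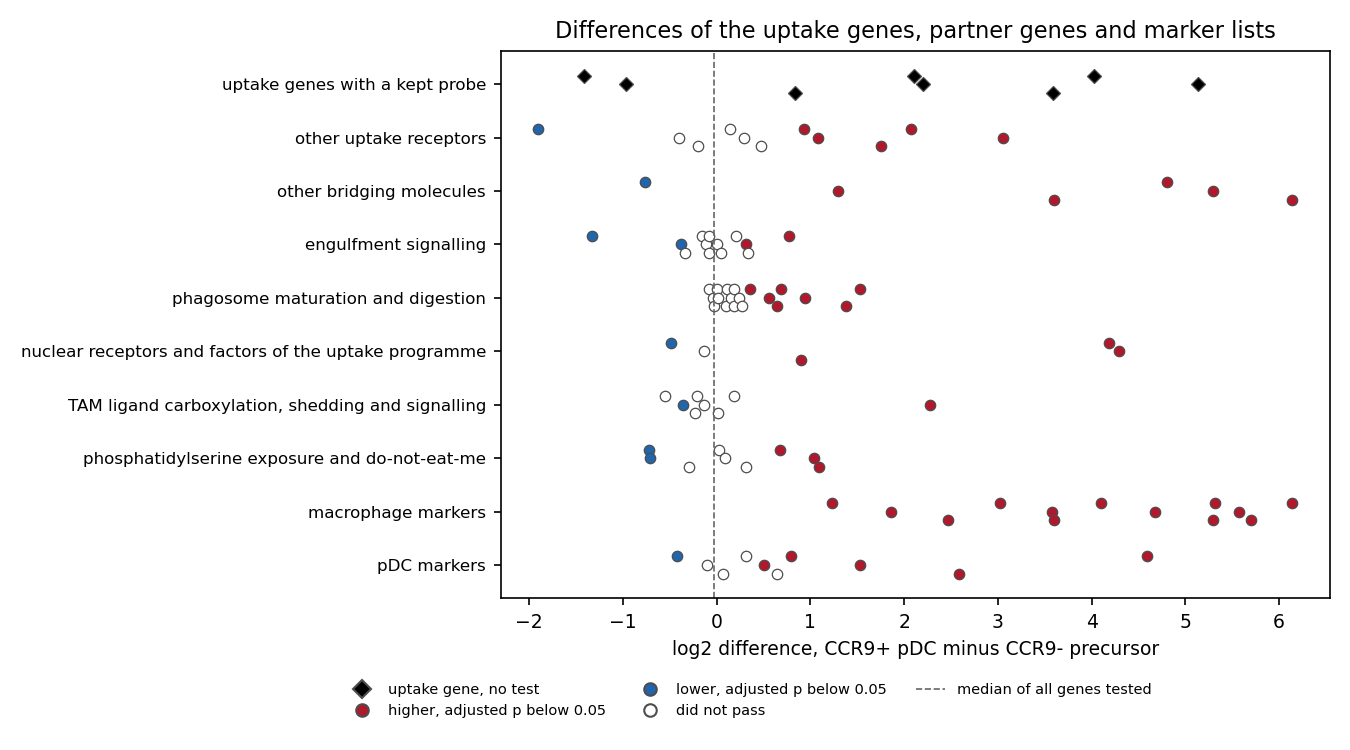
Log2 difference (horizontal axis, CCR9+ pDC minus CCR9- precursor) of each gene tested, by list, with diamonds for the uptake genes, which have no test, and circles for other genes, filled where the adjusted p is below 0.05; the dashed line is the median of all genes tested. Uptake genes run from -1.41 (Mfge8) to 5.14 (Axl), the 13 macrophage markers are all filled on the right, and most engulfment and phagosome genes lie near 0.

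Nr1h3, the LXR alpha gene, whose product induces Mertk in mouse macrophages, was not above background in precursors; its CCR9+ pDC signal was higher by at least 12.5-fold (9.12 ± 0.31 against a measured 4.92 ± 0.24, log2, SD, n = 3; adjusted p = 1.98e-05). Pparg, a nuclear receptor gene of lipid metabolism, was a fitted 19.6-fold higher (adjusted p = 2.22e-05) and above background on 1 precursor array. Abcg1, a cholesterol exporter gene and LXR target, was 1.86-fold higher (adjusted p = 0.0108). Without background correction the log2 differences were 2.25 instead of 4.19 for Nr1h3, 2.47 instead of 4.30 for Pparg and 0.57 instead of 0.90 for Abcg1, so the Nr1h3 bound holds only with the correction. Rxrb, which encodes a partner of these receptors, was lower by 0.49 (-0.49, adjusted p = 0.0190), a call lost without precursor replicate 1 (adjusted p = 0.0727) or 2 (0.0697). In all, 3 of 5 tested rose, 1 fell and 1 did not pass (median 0.90).

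Of 8 genes for ligand carboxylation, receptor shedding and signalling, 1 was higher, 1 lower and 6 did not pass (median -0.17). The shares higher and lower were 12.5% each, against 17.6% and 18.2% of all genes tested. Socs3, a suppressor of cytokine signalling induced through TAM receptors, was 4.83-fold higher (9.03 ± 0.14 against 6.76 ± 0.39, log2, SD, n = 3; adjusted p = 0.000244), with a log2 difference of 1.46 instead of 2.27 without background correction. Ggcx, the carboxylase that Gas6 and protein S need to bind phosphatidylserine, differed by -0.13 (adjusted p = 0.682), or 0.12 without CCR9+ pDC replicate 3. Vkorc1l1, a vitamin K reductase gene, was lower (-0.36, adjusted p = 0.0338), a call lost without CCR9+ pDC replicate 2 (0.0999) or 3 (0.0609), without any 1 precursor array (0.114, 0.0673 and 0.0724) and with no filter on dim probes (0.0595).

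Of 13 engulfment signalling genes, 2 were higher, 2 lower and 9 did not pass (median -0.08). Here the shares higher and lower were 15.4% each, against 17.6% and 18.2% of all genes tested. Elmo2, an adaptor of the Rac activator Dock1, was 2.52-fold lower in CCR9+ pDCs (adjusted p = 0.000133). Dock2, a Rac activator of leukocytes, was 1.71-fold higher (adjusted p = 0.0099), a call lost under median scaling (0.111). Rac1 did not pass (-0.08, adjusted p = 0.580). Crkl (-0.38, adjusted p = 0.0453) and Abca7 (0.32, adjusted p = 0.04998) passed narrowly. The Crkl call was lost without any 1 array but precursor replicate 3 (adjusted p = 0.101, 0.0530 and 0.0874 without CCR9+ pDC replicates 1, 2 and 3, and 0.147 and 0.140 without precursor replicates 1 and 2), under cyclic loess (0.0616) and with no filter (0.0756). The Abca7 call was lost without any 1 array but CCR9+ pDC replicate 2 (0.118 and 0.0909 without CCR9+ pDC replicates 1 and 3, and 0.112, 0.159 and 0.0957 without precursor replicates 1, 2 and 3), under median scaling (0.679), with no filter (0.0890) and with probe means (0.0834).

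Of 19 genes of phagosome maturation and digestion, 7 were higher, none lower and 12 did not pass (median 0.19; all 9561 genes -0.02). Lipa, the lysosomal acid lipase gene, was 2.89-fold higher (11.20 ± 0.53 against 9.67 ± 0.20, log2, SD, n = 3; adjusted p = 0.0049). The NADPH oxidase subunit gene Cyba was 1.93-fold higher (adjusted p = 0.00114). In precursors Cybb, the catalytic subunit gene, was not above background, and CCR9+ pDCs were at least 2.32-fold higher (adjusted p = 0.0314). The Cybb call was lost without CCR9+ pDC replicate 1 (0.0878) or 2 (0.0877) and without any 1 precursor array (0.0912, 0.0936 and 0.0703), the log2 difference was 0.54 instead of 1.38 without background correction, and Cybb was not kept at a detection p-value below 0.01. Npc1, which exports cholesterol from lysosomes, was 1.61-fold higher by its brightest probe (adjusted p = 0.0030), but with the mean of its probes the difference was 0.16 (adjusted p = 0.436).

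Of 9 genes of phosphatidylserine exposure and signals that permit or block uptake, 3 were higher, 2 lower and 4 did not pass (median 0.08). Sirpa, the receptor of the block signal CD47, was 2.13-fold higher (adjusted p = 0.000304), and the scramblase gene Plscr1 2.05-fold (adjusted p = 0.0123), though its second, dimmer probe differed by -0.04 and the log2 difference was 0.51 instead of 1.03 without background correction. Panx1, a channel gene through which dying cells release nucleotides, and Pecam1, an adhesion molecule gene, were lower by 0.73 (-0.73, adjusted p = 0.00226) and 0.72 (-0.72, adjusted p = 0.00115) on the log2 scale.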

How the data were processed

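For each array the authors deposited the linear intensity of every probe before normalization and, beside it, a detection p-value, per the file headers. They also deposited processed intensities of the same arrays, whose normalization the sources used here do not state. BeadStudio and lumi are named in the submitters' processing notes. Background was corrected with limma's normexp model from the detection p-values (offset 16), followed by log2 and then quantile normalization (R 4.3.3, limma 3.58.1, data.table version 1.17.8). A probe was kept if its detection p-value was under 0.05 on 3 or more arrays (16857 probes). The brightest kept probe on average stood for each of 9561 genes. Symbols came from the platform annotation, updated through Entrez identifiers; 34807 probes were found in RefSeq's gene list (assembly GRCm38.p6).

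Differences, CCR9+ pDC minus CCR9- precursor, were fitted with lmFit and eBayes over all genes with Benjamini-Hochberg adjustment (threshold 0.05) and no replicate term; the fit was tested on simulated data. Of the 9561 genes, 3424 (35.8%) passed, 1685 higher and 1739 lower. Values adjusted over a list alone are not given. Uptake genes and lists were chosen with earlier results of these data known. Named are all 10 uptake genes, the 4 largest called differences of each partner list, up to 3 genes that did not pass, and those stated to be named after their values were seen. The 3 arrays of a group limit precision, and no array duplicated another. The sources used here do not state whether same-numbered replicates share mice. Alternatives were other background corrections, normalizations, filters, probe summaries, variance models and left-out arrays.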

Additional observations from a re-analysis of the deposited data

How the results depend on the processing

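Every direction of the 8 uptake genes with a kept probe was kept under every alternative run, and Timd4, like the partner gene Cybb, was not kept at a detection p-value below 0.01. The count of uptake genes whose arrays did not overlap and were higher in CCR9+ pDCs was 6, or 5 under that filter. Without background correction 5 of the 8 had log2 differences more than 1.5 times smaller, and likewise with the authors' processed values; so had 11 of the 28 named partner genes that were called, in each setting, all still called. Partner genes called higher numbered 21 to 28 and those lower 5 to 11, against 26 and 8. Leaving out 1 array gave 23 to 26 higher and 5 to 8 lower, the lowest, 5, without precursor replicate 1 or 2. The log2 difference of Stab1 reversed to 0.25 with probe means, where its probes disagree, and that of Ggcx to 0.12 without CCR9+ pDC replicate 3 (range -0.31 to 0.12 with 1 array left out); the cause was not tested. With replicate number as a block 3360 genes were called, against 3424, with 25 partner genes higher and 9 lower, and Cybb was no longer called (adjusted p = 0.0519). Deviations from the group means correlated at 0.35, 0.04 and 0.24 between arrays numbered 1, 2 and 3. Between arrays with different numbers the correlations ran from -0.30 to 0.06. Numbers 1 and 3 thus stood above the rest, and number 2 did not. Whether the numbers are pairs was not settled, and the main fit has no replicate term. A slide block was not run, because the headers give no slide. Precursor signals near background limit the folds of Gas6, Timd4, Siglec1, Mertk, Stab2, Itgb5, Apoe, C1qa, C1qb, C1qc, Pparg, Nr1h3 and Cybb.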
